A study of Bubalus bubalis with 8 samples.

Results

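The genes described here carry MHC class I and load it with peptides: the class I heavy chain BOLA, beta-2-microglobulin B2M, the peptide transporter subunits TAP1 and TAP2, tapasin (TAPBP), and the immunoproteasome subunits PSMB8 and PSMB9. They were chosen by name, as all probes whose gene name on the array was BOLA exactly or that of another of the 7 genes, out of 24839 named genes on the array. These genes had 28 probes among the 43653 probes outside the control spots, 26 of them outside a dark region of the array of unstressed cells (CTR). MECs (mammary epithelial cells) of a female riverine buffalo (Bubalus bubalis) were kept at 37 °C (CTR) or exposed for 1 h to 42 °C and then returned to 37 °C, and were harvested by trypsinization at 7 times after heat stress, 30 min and 2 h, then 4 h and 8 h, and last 12 h, 16 h and 24 h. The cells were a primary culture at passage 10 from the mammary tissue of a single adult animal, and their RNA was hybridised with Cy3 to bovine oligonucleotide arrays, 1 array per condition. As no condition has a second array, no replicate check or p-value is given, and precision is limited by the number of arrays. Although control plates were harvested at each time point, there was 1 CTR array, and changes are against it unless 4 h is named as reference. In RNA from a whole culture, a change in the share of cells of a type cannot be told from a change in RNA per cell.

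MHC class I molecules show peptides from proteins made inside a cell to CD8 T cells, and nearly all nucleated cells, epithelium included, carry them. The proteasome cuts cytosolic proteins, the immunoproteasome subunits PSMB8 and PSMB9 replacing constitutive catalytic subunits when cells meet interferon, and the TAP1/TAP2 transporter carries the peptides into the endoplasmic reticulum. There tapasin bridges TAP to the heavy chain, which pairs with B2M and leaves for the surface once a peptide is bound. In cattle the heavy chain is encoded by several closely related BOLA genes, so that a BOLA probe may bind RNA of more than 1 of them, and buffalo RNA may differ from the bovine probe in some bases.

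The probes are 60 bases long, and those of BOLA are shown because they overlap each other and yet lie at different places on the array. The 2 lines below are the probes most alike, and capitals mark the bases that differ, A36G and T57G, counted from the 5′ end of A_73_P041976.
A_73_P041976: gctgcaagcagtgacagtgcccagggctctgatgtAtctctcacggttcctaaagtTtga
A_73_P108026: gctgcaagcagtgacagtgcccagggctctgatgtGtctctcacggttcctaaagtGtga
The probe A_73_P062321 shares a run of 50 bases with A_73_P108026, in capitals here.
A_73_P062321: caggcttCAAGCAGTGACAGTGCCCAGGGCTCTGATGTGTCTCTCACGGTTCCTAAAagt
A further 3 probes share the run of 16 bases in capitals.
A_73_P039316: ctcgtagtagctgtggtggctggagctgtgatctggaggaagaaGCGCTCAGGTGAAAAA
A_73_P107911: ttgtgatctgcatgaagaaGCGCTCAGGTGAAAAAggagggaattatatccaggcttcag
A_73_P109228: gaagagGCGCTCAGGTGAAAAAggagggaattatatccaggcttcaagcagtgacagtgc
The remaining pair below overlaps no other BOLA probe by 20 bases or more.
A_73_P032576: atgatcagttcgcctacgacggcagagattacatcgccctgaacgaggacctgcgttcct
A_73_P098606: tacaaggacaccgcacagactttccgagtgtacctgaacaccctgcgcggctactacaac

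According to the file headers the array was designed on build HGSC Btau_3.1, and its probe annotation places A_73_P041976 at chr23:28656079-28656442 (minus strand), A_73_P108026 at chr23:27846342-27846701 (plus), A_73_P062321 at chr23:28554532-28554730 (minus), A_73_P032576 at chr23:27749511-27749823 (plus) and A_73_P098606 at chr23:28658902-28658958 (minus). Probes A_73_115812 (chr23:28655800-28655859) and A_73_P098582 (chr23:28655816-28655875) share a run of 37 bases, and A_73_P107911 and A_73_P109228 are listed as unmapped. The BOLA probes thus overlap in sequence and are not independent measurements. Of the 11 BOLA probes, 10 shared a run of 20 bases or more with another probe, for example with probes named BOLA-NC1, JSP.1 and LOC790811, and A_73_P032576 with none.

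A level is the log2 of the deposited spot intensity over the 75th percentile of its array, so that 0 is the 75th percentile and 1 more is a doubling. A change is the difference of 2 levels. The spread between spots of 1 bright probe gave a change an error of 0.29 (8 h) to 0.51 (16 h), 0.36 at 2 h, and leaves out any spread between cultures. At 30 min, where the scanner intensities departed from the values the authors deposited, the deposited log2 values were used and the CTR spread stood in for both arrays, giving an error of 0.30. Where 1 of the arrays compared read a probe as not well above background, its level there was raised to the detection limit of that array (the dimmest probe marked well above background) if it was lower, and the change is a bound. Where it was dim on both arrays it has no change. CTR, 8 h, 12 h and 24 h lay on slide 1, and 30 min, 2 h, 4 h and 16 h on slide 2, so that slide and heat stress cannot be told apart where a slide 2 array is compared with CTR. Of the 26 member probes, 21 were well above background on at least 1 array and 10 on all 8.

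Most probes with a value of the class I heavy chain and the immunoproteasome subunits were over 3-fold higher than CTR at 30 min, 2 h and 16 h, and part of the B2M probes at 30 min and 2 h, while at 8 h, 12 h and 24 h no member probe was 3-fold away from CTR. The median change of the member probes was 3.23 at 30 min (19 probes with a value), 3.12 at 2 h (20 probes), 0.28 at 4 h (17 probes) and 1.39 at 16 h (17 probes). On slide 1 it was -0.19 at 8 h (15 probes), -0.63 at 12 h (14 probes) and -0.33 at 24 h (13 probes). Over all probes outside the dark region the median change lay between -0.26 (2 h) and -0.08 (4 h). With the 3-fold cutoff of the study, 15 of 19 member probes were higher at 30 min, against 8.33% of all probes handled the same way, and 15 of 20 at 2 h, against 6.69%. At 16 h 8 of 17 were higher, against 6.01% of all probes. No member probe was 3-fold higher at 4 h (3.25% of all probes), 8 h (0.553%), 12 h (0.188%) or 24 h (0.108%). None was 3-fold lower at any time point, where the share of all probes that were lower was 5.03% at 30 min and 9.75% at 2 h, then 6.56% at 4 h, with 5.33% at 16 h, and 0.193%, 0.506% and 0.676% on the 8 h, 12 h and 24 h arrays. These counts include bounds, and a probe dim in CTR has a value only where it was bright at the time point, so that its value could not be a decrease. Limited to probes bright on both arrays, 10 of 13 member probes were 3-fold higher at 30 min, against 3.42% of all such probes, 10 of 14 at 2 h, against 2.34%, and 5 of 14 at 16 h, against 2.93%. With the scanner intensities in place of the deposited values at 30 min, 5 member probes were 3-fold lower and the direction of BOLA probes A_73_P039316, A_73_P062321 and A_73_P098582 and of B2M probe A_73_P109111 turned, so the 30 min values rest on the deposited table. In 15 of the 21 detected probes 30 min, 2 h and 16 h were the 3 highest arrays, with dim levels ranked too. The share of all probes with this order was not determined, so the order is not shown to be particular to the members.

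**Figure D1:**
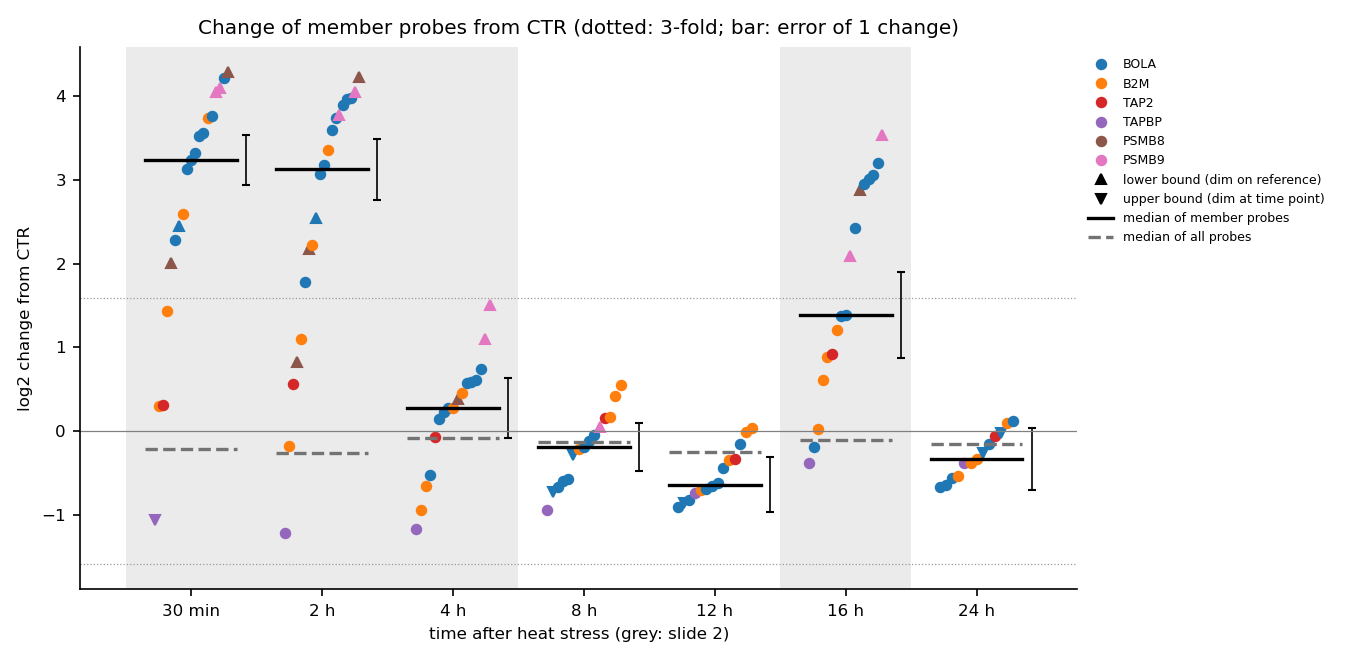
Log2 change from CTR of each member probe at each time after heat stress, 1 array per time point, with circles for measured changes and triangles for bounds, and the error of 1 change beside the median. At 30 min and 2 h 15 member probes lie above the dotted 3-fold line and at 16 h 8 probes, none of them of B2M, while at 8 h, 12 h and 24 h the median of the members is -0.19, -0.63 and -0.33.

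BOLA, the heavy chain that holds the peptide, was 3-fold higher than CTR on all 9 detected probes outside the dark region at 30 min and at 2 h, and on 5 of 8 with a value at 16 h. The level of A_73_P098582 was 3.65 in CTR, 7.41 and 7.62 at 30 min and 2 h, 3.93 at 4 h, 6.60 at 16 h, and 3.00, 2.84 and 3.10 on the 8 h, 12 h and 24 h arrays, with a saturated spot at 2 h. All slide 2 arrays but 4 h stood above every slide 1 array by over 2 on the log2 scale. Its overlapping neighbour A_73_115812 had a level of 3.48 (CTR), 7.04 (30 min), with a saturated spot, 7.21 (2 h), 4.06 (4 h), 3.29 (8 h), 2.79 (12 h), 6.49 (16 h) and 2.82 (24 h). Expressed as folds over CTR, A_73_P098582 was 13.5-fold higher at 30 min, at least 15.7-fold at 2 h, where its spot was saturated, and 7.73-fold at 16 h.

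A_73_P039316 had no saturated spot on the arrays other than 30 min and was well above background on every array. Its level was 2.25 in CTR, 6.46 and 6.21 at 30 min and 2 h, 2.86 at 4 h, 5.30 at 16 h, and 1.66, 1.35 and 1.61 on the 8 h, 12 h and 24 h arrays, that is 18.5-fold over CTR at 30 min. The order of its arrays was 30 min, 2 h, 16 h, 4 h, CTR, 8 h, 24 h and 12 h, where 30 min and 2 h differed by less than the error of a change, as did 8 h and 24 h, and 24 h and 12 h. A_73_P062321 had a level of 3.21 in CTR, 6.33 and 6.28 at 30 min and 2 h, 3.95 at 4 h, 5.63 at 16 h, and 3.16, 3.06 and 3.33 on the 8 h, 12 h and 24 h arrays. A_73_P107911 had a level of -0.18 in CTR, 3.05 and 3.71 at 30 min and 2 h, -0.04 at 4 h and 3.01 at 16 h, and was dim on the arrays of 8 h, 12 h and 24 h. Both probes had 30 min, 2 h and 16 h as their highest arrays.

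The probe pair that differs by 2 bases was read at 2 places on the array. A_73_P041976 had a level of 2.19 in CTR, 5.70 and 5.36 at 30 min and 2 h, 1.67 at 4 h, 3.56 at 16 h, and 2.08, 1.76 and 2.04 on the 8 h, 12 h and 24 h arrays. A_73_P108026 lies in the dark part of the CTR array, and its bright neighbours there read 2.69 lower on the log2 scale than on the other arrays, so that no change from CTR is given for it. Its level was 6.65 and 6.32 at 30 min and 2 h, 3.54 at 4 h, 5.07 at 16 h, and 3.33, 3.23 and 3.50 on the 8 h, 12 h and 24 h arrays. Against 4 h, on the same slide, it was 3.11 higher at 30 min, 2.77 higher at 2 h and 1.52 higher at 16 h, where A_73_P041976 was 4.03, 3.69 and 1.89 higher. Both probes had their 3 highest arrays at 30 min, 2 h and 16 h.

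Smaller or missing increases at 16 h were found on 4 BOLA probes. The change at 16 h was 1.39 on A_73_P109228, 1.38 on A_73_P041976 and -0.19 on A_73_P032576, and A_73_P098606 was not well above background there. At 2 h the same probes stood 1.78, 3.17 and 3.59 above CTR, and A_73_P098606 at least 5.83-fold higher. On the 16 h array the bright neighbours of A_73_P109228 read 0.87 lower than on the other arrays, those of A_73_P032576 1.05 lower and those of A_73_P098606 0.75 lower, whereas those of A_73_P041976 read 0.15 higher. With the median shift of the neighbours subtracted, a step chosen after the data were seen, the 16 h change was 2.48 on A_73_P109228 and 1.22 on A_73_P032576. The remaining BOLA probe, A_73_110205, was not well above background on any array.

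**Figure D2:**
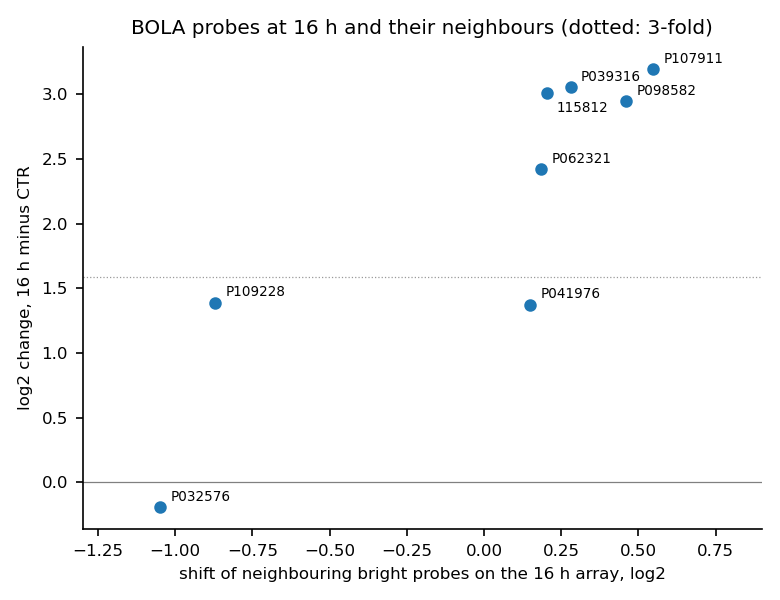
Log2 change of 8 BOLA probes at 16 h over CTR against the shift of bright neighbouring probes (within 10 rows and columns) on the 16 h array, 1 point per probe, names without their prefix A_73_. The probes A_73_P032576 and A_73_P109228 lie where neighbours read 1.05 and 0.87 lower, and the 5 probes above the dotted 3-fold line where neighbours read higher.

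**Figure D3:**
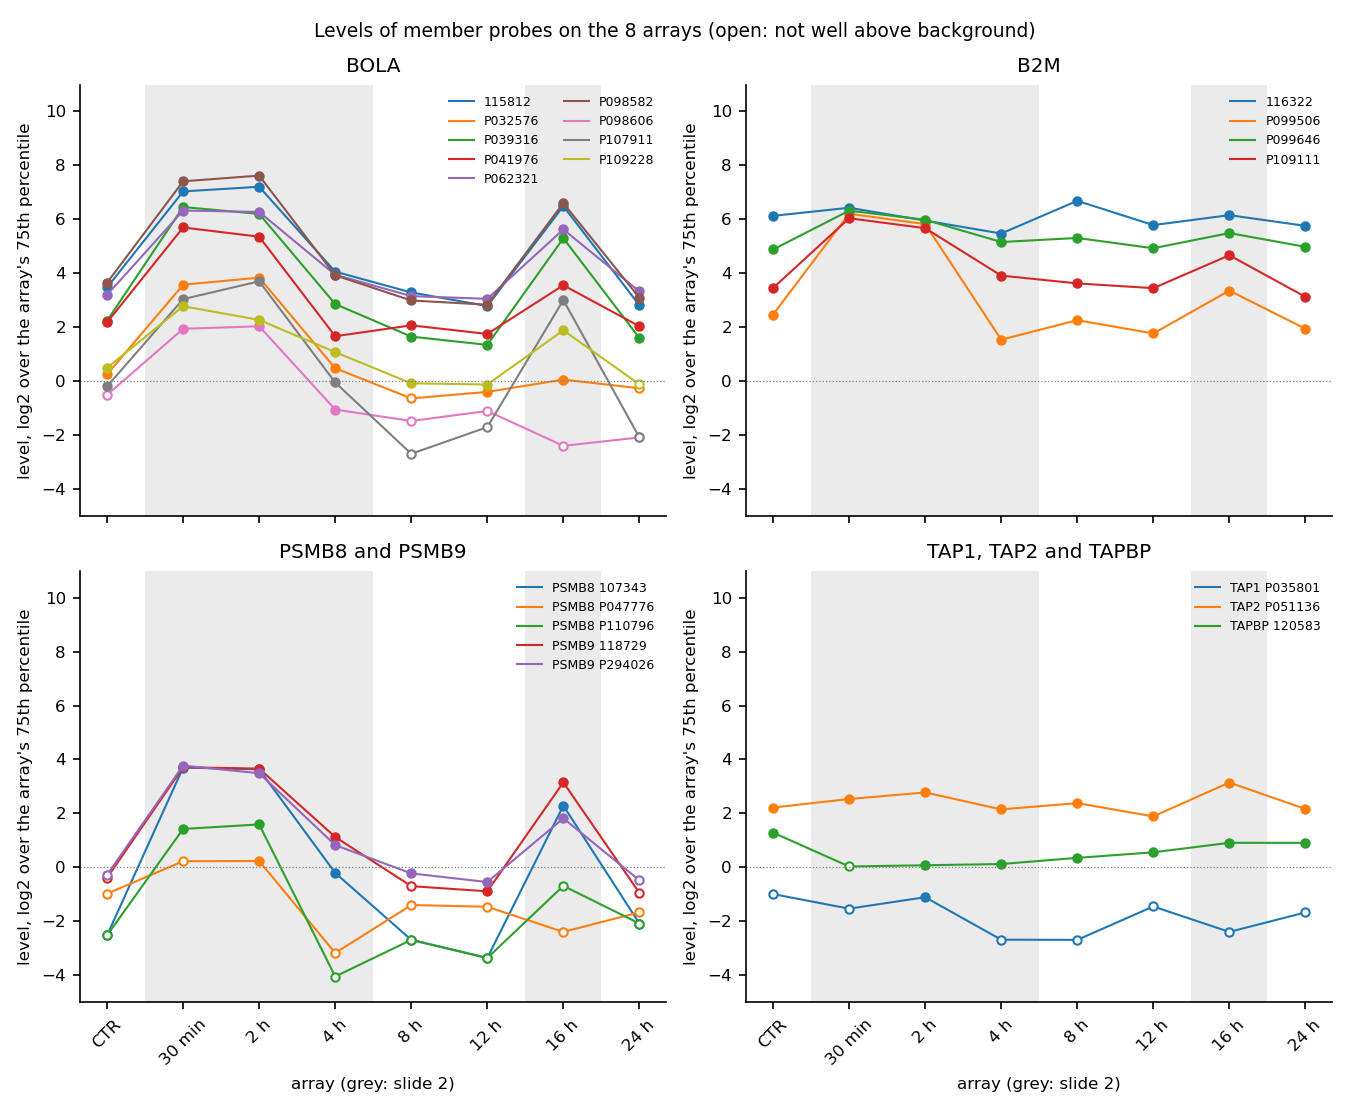
Level of each member probe that was detected at least once and lies outside the dark region (log2 over the 75th percentile of the array) on the 8 arrays, probe names without their prefix A_73_, open circles where a probe was not well above background. Most BOLA, PSMB8 and PSMB9 lines are highest at 30 min, 2 h and 16 h, the B2M lines differ between probes, and over the arrays other than 30 min TAP2 and TAPBP stay within 1.26 and 1.21 on the log2 scale.

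B2M, the light chain shared by class I molecules, gave different changes on its 4 detected probes. A_73_P099506 (chr10:106114360-106114419) had a level of 2.47 in CTR, 6.21 and 5.83 at 30 min and 2 h, 1.54 at 4 h, 3.36 at 16 h, and 2.27, 1.77 and 1.95 on the 8 h, 12 h and 24 h arrays, which was 13.3-fold over CTR at 30 min and 10.2-fold at 2 h. A_73_P109111 (chr10:106114274-106114333) had a level of 3.46 in CTR, 6.04 and 5.68 at 30 min and 2 h, 3.92 at 4 h, 4.67 at 16 h, and 3.63, 3.45 and 3.13 on the 8 h, 12 h and 24 h arrays. Both passed 3-fold at 30 min and 2 h and at no other time. A_73_P099646 (chr10:106114447-106114506) stood at 4.89 in CTR, 6.33 and 5.99 at 30 min and 2 h, 5.16 at 4 h, 5.50 at 16 h, and 5.31, 4.93 and 4.98 on the 8 h, 12 h and 24 h arrays, and did not reach 3-fold. A_73_116322 (chr10:106114776-106114835) stood at 6.13 in CTR, 6.43 and 5.96 at 30 min and 2 h, 5.48 at 4 h, 6.16 at 16 h, and 6.69, 5.79 and 5.76 on the 8 h, 12 h and 24 h arrays. On this probe 30 min, 2 h and 16 h were not set apart from the other arrays. None of the 4 had a saturated spot on the arrays other than 30 min. The fifth probe, A_73_P167762, made from an expressed sequence tag, is the exact reverse complement of A_73_P109111 and was not well above background on any array.

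The immunoproteasome subunits PSMB8 and PSMB9 (the proteins LMP7 and LMP2) were not well above background in CTR on any probe and were bright at 30 min and 2 h. PSMB8 probe A_73_107343 (chr23:7379740-7379799) had a level of 3.70 (30 min), 3.63 (2 h), -0.20 (4 h) and 2.29 (16 h), and was dim at CTR, 8 h, 12 h and 24 h. Its increase over CTR was at least 19.5-fold (30 min), at least 18.6-fold (2 h) and at least 7.33-fold (16 h). A_73_P110796 (chr23:7379932-7380229) was at least 4.03-fold higher at 30 min and at least 4.53-fold at 2 h, and dim on the other arrays, 16 h included. A_73_P047776 (chr23:7381745-7381804) was well above background at 2 h alone, at least 1.77-fold over CTR, with a level of 0.23 at 30 min just under the detection limit of 0.24.

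PSMB9 was read by a pair of probes that share a run of 50 bases. A_73_118729 (chr23:7399910-7399969) had a level of 3.71 (30 min), 3.66 (2 h), 1.13 (4 h), -0.89 (12 h) and 3.15 (16 h), and was dim in CTR, at 8 h and at 24 h. A_73_P294026 (chr23:7399900-7399959) had a level of 3.77 (30 min), 3.49 (2 h), 0.83 (4 h), -0.22 (8 h), -0.54 (12 h) and 1.82 (16 h). For the first the increase over CTR was at least 17.1-fold (30 min), at least 16.5-fold (2 h) and at least 11.6-fold (16 h). At 4 h it was at least 2.85-fold higher. The probe A_73_P511858, made from an expressed sequence tag, was dim on every array, and A_73_P461891 lies in the dark region and was well above background at 2 h alone.

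No probe of the peptide transporter or of tapasin was 3-fold away from CTR at any time. TAP2 probe A_73_P051136 (chr23:7345518-7345577) was well above background on every array, with a level of 2.22 in CTR, 2.54 and 2.78 at 30 min and 2 h, 2.15 at 4 h, 3.15 at 16 h, and 2.38, 1.89 and 2.17 on the 8 h, 12 h and 24 h arrays. Its change was 0.56 (2 h) and 0.93 (16 h), beyond the error of a change but under 3-fold, and 0.32 (30 min), so that 16 h, 2 h and 30 min were its highest arrays too. TAPBP probe A_73_120583 (chr23:7767636-7767695) was highest in CTR at 1.29, and stood at 0.08 (2 h), 0.13 (4 h), 0.35 (8 h), 0.56 (12 h), 0.91 (16 h) and 0.91 (24 h). It was 2.31-fold lower than CTR at 2 h and 2.24-fold lower at 4 h, and at 30 min it was dim and at least 2.07-fold lower. On slide 1 its change was -0.94 (8 h), -0.73 (12 h) and -0.38 (24 h). TAPBP was thus below CTR by more than the error at every time but 16 h, where the difference of -0.38 was within it. On the CTR array its neighbours read 0.40 higher than on the other arrays, and with the shift of neighbours subtracted the change was -0.42 (2 h), -0.87 (4 h), -0.44 (8 h), 0.029 (12 h) and -0.015 (24 h), the last 2 within the error. TAP1 was read by 3 probes, which were dim on every array except A_73_P035801 at 2 h (-1.10), a level under the CTR detection limit of -0.59, so that no fold can be given and a difference was not detectable at this signal.

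Because CTR lies on the other slide, the slide 2 arrays were also compared with each other, with 4 h as reference. BOLA, PSMB8 and PSMB9 stood higher at 30 min, 2 h and 16 h than at 4 h on most probes. The median change of the member probes from 4 h was 2.98 (30 min) (18 probes), 2.66 (2 h) (21 probes) and 1.68 (16 h) (17 probes), with errors of 0.36, 0.41 and 0.55, where the median over all probes was -0.20, -0.24 and 0.02. The 16 h value depended on the scaling, at 0.12 with the median of all probes in place of the 75th percentile and 0.65 with normexp background correction. Scaling by the median shifts all probes of an array alike. In changes from CTR, the median of the members then stood 0.50 (4 h) and 1.49 (16 h) above that of all probes. With the 75th percentile it stood 0.35 and 1.49 above, and with normexp 0.54 and 1.26. At 30 min 15 of 18 member probes were 3-fold higher than at 4 h, against 10.2% of all probes, at 2 h 15 of 21, against 6.25%, and at 16 h 9 of 17, against 4.66%. None was 3-fold lower, where 1.34% of all probes were lower at 30 min, 2.23% at 2 h and 1.77% at 16 h. B2M probe A_73_P099506 was 25.4-fold higher at 30 min than at 4 h, and BOLA probe A_73_P107911 was 8.30-fold higher at 16 h. These comparisons and those with CTR share the 30 min, 2 h and 16 h arrays. Within slide 1 the changes from CTR on the member probes ran from -0.94 (TAPBP, 8 h) to 0.56 (B2M probe A_73_116322, 8 h). At 12 h 13 of 14 member probes lay below CTR, but the median over all probes was itself -0.24 there. The share of all probes below CTR was not determined.

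**Figure D4:**
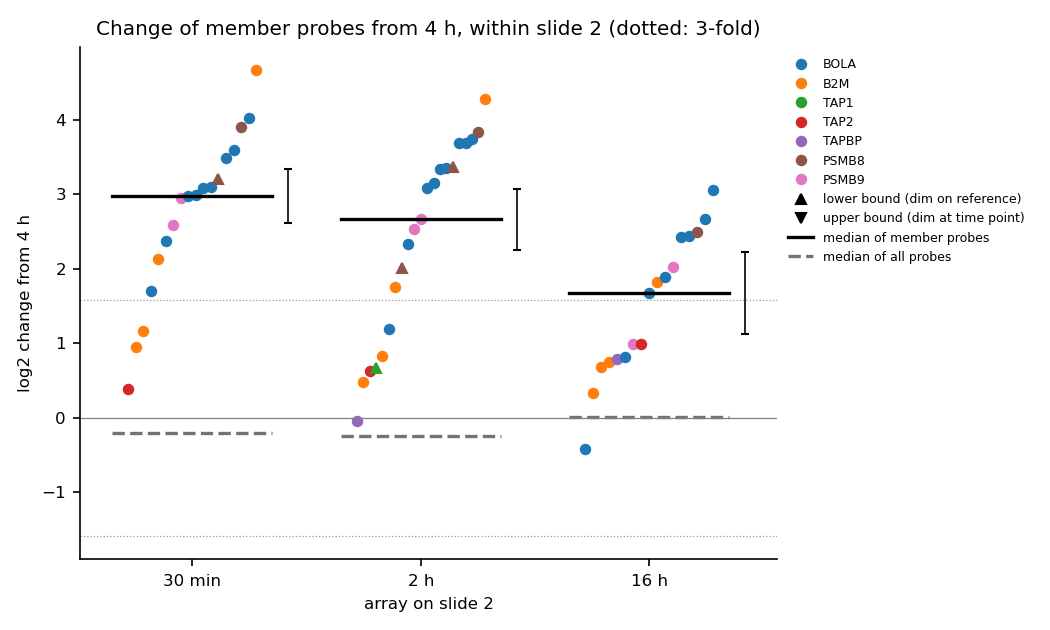
Log2 change from 4 h of each member probe on the other 3 arrays of slide 2, with circles for measured changes, triangles for bounds and the error of 1 change beside the median. The medians of 2.98, 2.66 and 1.68 lie above the dotted 3-fold line, and the median of all probes lies between -0.24 and 0.02. The 16 h median of the members was 0.12 with median scaling, which shifts all probes of an array alike, and 0.65 with normexp, both under 3-fold.

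Other genes of the pathway were read from lists of 39 genes, of which 36 had 86 probes outside the dark region. At 30 min 16 of 50 probes with a value were 3-fold higher than CTR and at 2 h 18 of 58, against 8.33% and 6.69% of all probes, and at 16 h 6 of 39, against 6.01%, with none 3-fold lower at 30 min and 2 h and 1 at 16 h, an NF-kB subunit (RELA) probe, A_73_P239530, at -1.67. Without the 6 pathway probes whose CTR neighbours read 0.3 or more lower than on the other arrays, a limit chosen after the data were seen, 14 of 46 were higher at 30 min, 15 of 54 at 2 h, 4 of 36 at 16 h and none of 38 at 4 h. The probes this left out of the counts were those of ERAP2, TAPBPL, IRF1 and CALR beside the dark region, whose CTR neighbours read 0.65, 0.50, 0.44 and 0.39 lower. At 4 h 1 of 41 was higher, a calreticulin (CALR) probe, A_73_P329471, with a change of 1.74 that was 1.12, under 3-fold, with the shift of neighbours subtracted, and at 8 h, 12 h and 24 h none was 3-fold away.

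Among other class I and class I-like genes 6 of 9 probes with a value were 3-fold higher at 30 min, 8 of 12 at 2 h and 3 of 8 at 16 h. Of all probes 8.33%, 6.69% and 6.01% were higher at these times. The counts include bounds on probes dim in CTR, which could not be decreases. The non-classical class I gene BOLA-NC1 had a probe, A_73_P109236, with a level of 1.15 (CTR), 6.49 (30 min), 6.27 (2 h), 1.73 (4 h) and 4.24 (16 h). Its other probe that passed 3-fold, A_73_P109161, changed by 2.73 at 30 min and 1.92 at 2 h. JSP.1, a class I gene, had a level of 4.43 (CTR), 7.20 (30 min), 6.72 (2 h), 4.38 (4 h) and 6.72 (16 h) on A_73_P296616, and was bounded at 2.44 or more at 30 min on A_73_P047531. BOLA-N probes A_73_P098656 and A_73_P098666 were bounded at 2.09 and 2.89 or more at 30 min. The class I-like genes HFE, MR1 and MIC1 were not well above background on any probe outside the dark region.

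Genes that regulate class I or receive interferon signals were also among those that passed 3-fold at 2 or more time points. IRF1, an interferon-responsive transcription factor, had a level of -1.54 (dim) in CTR, 3.36 (30 min), 4.10 (2 h), 0.40 (4 h) and 1.87 (16 h) on A_73_102589. It lies beside the dark region, where neighbours on the CTR array read 0.44 lower than on the other arrays, so no fold over CTR is given, and against the 4 h level it was higher by a margin of over 1 on the log2 scale at 30 min, 2 h and 16 h. NFKB1, an NF-kB subunit, changed by 2.48 (30 min) and 3.02 (2 h) on A_73_P049881 and by -0.77 (16 h). IRF2 probe A_73_P103731 was bounded at 1.92 or more at 30 min. The receptor chain IFNGR2 changed by 2.57 (30 min), 2.64 (2 h) and 1.63 (16 h) on A_73_P450721 and by at least 3.03 (30 min) on A_73_107789, while IFNGR1 (A_73_115260) and IFNAR2 (A_73_114729) were bounded at 2.11 and 3.72 or more at 30 min. IFNG, the interferon itself, was not well above background on either probe.

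In peptide trimming and loading 2 of 15 probes with a value were 3-fold higher at 30 min and 3 of 15 at 2 h, with medians of 0.32 and 0.23. Of all probes 8.33% and 6.69% were higher, so counts this small do not set the list apart. The chaperones CALR and CANX and the oxidoreductase PDIA3, which help the heavy chain fold and load, had no probe past 3-fold at 30 min or 2 h, with CALR probe A_73_106913 at -0.04 and -0.15 and PDIA3 probe A_73_117337 at -0.65 and -0.03. Past 3-fold were 1 probe each of ERAP1 and ERAP2 at both times and of the tapasin-related gene TAPBPL (A_73_112102) at 2 h, by a bound of 1.61. ERAP1 (A_73_114759), an aminopeptidase that trims peptides in the endoplasmic reticulum, was bounded at 1.82 or more at 30 min and 2.18 at 2 h. ERAP2 (A_73_109593), at the edge of the dark region, had levels of 1.87 (30 min), 1.87 (2 h), -0.44 (4 h) and 1.06 (16 h). Of the constitutive catalytic subunits PSMB5, PSMB6 and PSMB7, which PSMB8, PSMB9 and PSMB10 can replace in that order, none of 4 probes reached 3-fold at any time. Their changes ran from -1.02 to -0.19 at 30 min and from -0.85 to -0.30 at 2 h, all below 0. The proteasome activator genes PSME1 and PSME2 had changes of -0.49 to 0.11 at 30 min and 2 h, and PSMB10, the third immunoproteasome subunit, was well above background at 2 h alone.

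Markers of other cell types also differed between the arrays, and not every list followed the class I genes. The share of all probes well above background was 40.2% (2 h), 37.5% (4 h) and 33.4% (12 h). It was 27.8% (8 h), 26.5% (CTR), 25.5% (16 h), 23.3% (30 min) and 23.2% (24 h). Counts of marker probes well above background therefore cannot be compared between arrays without these shares. The MHC class II list (BOLA-DRA, CD74 and BOLA-DQA1, which professional antigen-presenting cells carry) had 1 of 14 probes well above background in CTR, 12 and 13 at 30 min and 2 h, 9 at 4 h and 8 at 16 h, with 1 on the 8 h and on the 12 h array and none on the 24 h array. Its summed level, in multiples of the 75th percentile of the array, was 4.43 in CTR, 231 and 133 at 30 min and 2 h, 14.3 at 4 h and 50.4 at 16 h, with 2.80 to 5.02 on the other arrays. The summed level was thus highest on the arrays where BOLA, PSMB8 and PSMB9 were highest. The leukocyte list had 6 of 32 probes in CTR, 16 and 18 at 30 min and 2 h, 9 at 16 h and 6 to 8 on the other arrays, with a summed level of 82.6 in CTR, 230 and 176 at 30 min and 2 h, 82.2 at 16 h and 52.2 to 67.1 elsewhere. Its monocyte and macrophage markers CD14, CD68 and CSF1R were dim in CTR and well above background at 30 min and 2 h. CSF1R was so at 4 h and 16 h too, CD68 on 1 probe at 8 h, 12 h and 16 h, and CD14 on no other array, whereas ITGAM and the B cell marker MS4A1 were dim on every array. At 16 h the fibroblast list had 24 of 40 probes, against 8 in CTR and 5 to 16 on the other arrays, with DCN at a highest level of 6.08. The summed fibroblast level was 364 in CTR, 336 at 16 h and 151 to 348 on the others. It includes VIM, well above background on all 5 probes of every array, at most 7.48 in CTR and 5.94 at 16 h. The sum thus does not follow the other genes of the list. The highest DCN level was 0.36 in CTR, and COL1A2 was dim in CTR and reached 2.94 at 16 h. COL3A1 had 7 of 9 probes at 16 h against 1 in CTR. LUM and PDGFRA were detected at 16 h alone, and COL1A1 stood at 1.64 in CTR and 1.77 at 16 h.

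The epithelial list had 10 of 14 probes in CTR, 7 and 13 at 30 min and 2 h, 8 at 16 h and 10 elsewhere, with a summed level of 650 in CTR, 221 and 223 at 30 min and 2 h, 323 at 4 h and 432 to 510 on the other arrays. KRT5, KRT14, KRT19 and EPCAM were well above background on every array, while KRT18 was dim on all 3 of its probes in CTR. The highest KRT8 level was 6.99 in CTR and 3.29 at 30 min. The endothelial list had at most 2 of 13 probes on any array and none in CTR. VWF was well above background at 30 min, 2 h, 4 h and 16 h, PECAM1 at 16 h alone, and CDH5, KDR and TEK on no array. The summed endothelial level was 2.28 in CTR, 5.33 and 3.22 at 30 min and 2 h, and 4.98 at 16 h. On the other arrays it ran from 1.28 to 3.08. The part of these markers in the class I values was not tested.

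**Figure D5:**
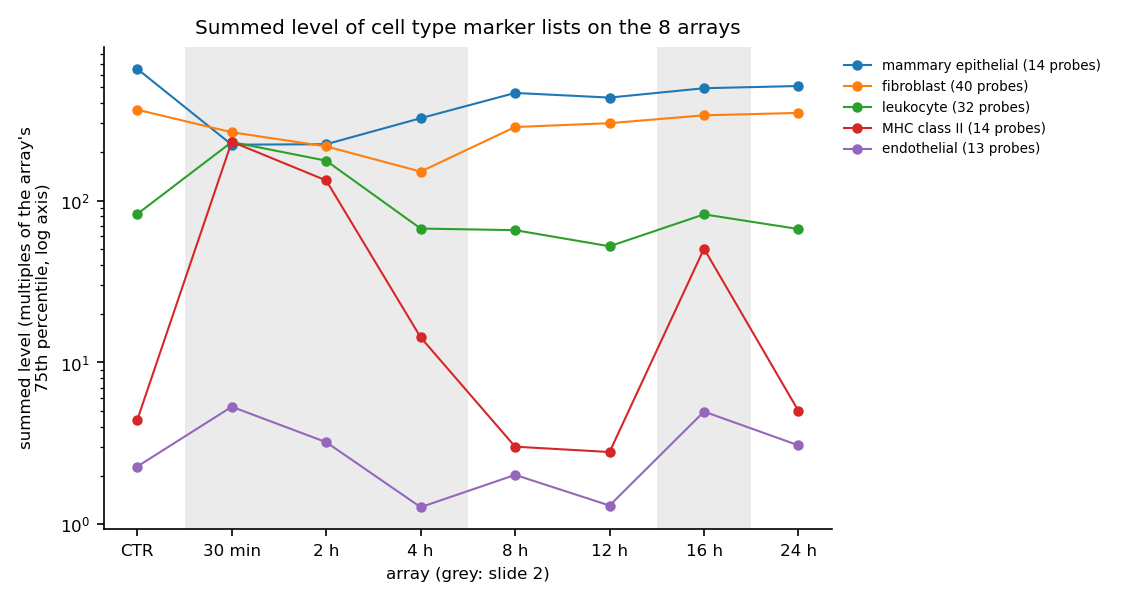
Summed level of each marker list (multiples of the 75th percentile of the array, log axis) on the 8 arrays, with probes in the dark region left out. The MHC class II sum was 231 at 30 min, 133 at 2 h and 50.4 at 16 h against 4.43 in CTR, while the epithelial sum was lowest at 30 min and 2 h.

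The probes whose pattern over the 7 arrays other than 30 min was most like that of a member were sought among 6959 probes of named genes bright on all 7. These arrays share their slides and their scaling, so Pearson's r is given as a description. For BOLA (A_73_P098582) they were CTSB, the lysosomal protease cathepsin B, with r of 0.994, and 2 probes named BoLA with r of 0.993. For B2M (A_73_116322) they were AZI2 (0.963), RBM15B (0.958) and H3F3A (0.941), for TAP2 NFKBIB (0.988), KLF6 (0.976) and ZFP36L2 (0.974), and for TAPBP ATP8 (0.993), PHC2 (0.988) and ARPC2 (0.979). TAP1, PSMB8 and PSMB9 had no probe bright on all 7 arrays.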

How the data were processed

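Gene expression was measured on 8 bovine arrays, 1 per condition, as spot intensity with 1 colour (Cy3). The authors scanned the slides on a GenePix-4000B and the deposited intensity of each spot was made by Feature Extraction 9.5.3.1, per the file headers, with spatial trends removed and no scaling between arrays. A table of log2 values, which the authors made in GeneSpring GX, was deposited too; in it each array is shifted by its 75th percentile and each probe is centred on its median.

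The level of a probe is log2 of its processed intensity minus log2 of the array's 75th percentile (over 43653 noncontrol probes), as a mean over its spots without outlier-marked ones. The 75th percentile ranged from 48.6 (30 min, scanner) to 423 (12 h). At 30 min the level is the deposited log2 value plus the median difference between both scales over the other 7 arrays, and detection needed a level at or above the highest limit among those arrays. The spread came from probes with 3 or more spots, outside the dark region (array rows 216 to 330, columns 30 to 59). Marks for spots well above background were those of the deposited files, and the mean and local background intensities served 1 alternative.

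Groups came from the labels. Changes were counted at 3-fold against CTR, and within slide 2 against 4 h, with the same handling of all probes outside the dark region as background. No test was made. The code was tested on simulated data. Named were all member probes and the pathway probes past 3-fold at 2 or more time points. A few others were named after their values were seen, among them CALR, CANX, PDIA3, TAPBPL and RELA. Alternatives were normexp (limma 3.58.1, offset 50), quantile normalization, the median or bright probes for scaling, deposited log2 values, other handling of dim probes, dark-region probes or marked spots kept, the 30 min scanner intensities and a 2-fold cutoff. Added after the data were seen were the shift of neighbouring probes and counts without pathway probes that had dim CTR neighbours. The members and lists were chosen with earlier results of these data known. Promoter letters were planned and not run, since no promoter sequence was used here. Python 3.11.15 with pandas 2.3.3 was used.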

Additional observations from a re-analysis of the deposited data

Results flagged for a closer look

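On 7 probes the change from CTR had opposite directions at different times, with a 3-fold increase at 1 time point and a decrease beyond the error of a change at another, on probes bright on both arrays. No condition had a second array, so the difference between time points was not tested. On 5 BOLA probes the lowest measured change was at 12 h, on slide 1 like CTR: -0.69 on A_73_115812, -0.65 on A_73_P032576, -0.89 on A_73_P039316, -0.81 on A_73_P098582 and -0.62 on A_73_P109228, where the median of all probes was -0.24. On BOLA probe A_73_P041976 it was -0.51 at 4 h and on B2M probe A_73_P099506 -0.93 at 4 h, on slide 2, where the largest changes of these probes were 3.51 and 3.74 at 30 min. With the shift of neighbouring probes subtracted, as done for BOLA at 16 h, 5 of the 7 decreases were within the error of 0.33 (12 h) or 0.36 (4 h): -0.074 on A_73_P032576, -0.29 on A_73_P039316, -0.13 on A_73_P098582, -0.076 on A_73_P041976 and -0.29 on A_73_P099506. Beyond it were A_73_115812 at -0.47 and A_73_P109228 at -0.35.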

How the results depend on the processing

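No condition had a second array, so no array could be left out, and a value counted as moved when it differed by more than the error of 1 change (counts by over 1.5 times). Of 254 recomputed medians and counts 221 stayed within this, among them all under quantile normalization, scaling on bright probes, the deposited log2 values and outlier-marked spots kept. Except with the scanner intensities, 30 min kept its deposited values, put on the scale of the other 7 arrays. These alternatives thus did not rescale the 30 min array itself and cannot show how its values depend on scaling. The deposited values also carry the same 75th percentile shift as the levels, so their likeness was largely fixed in advance. No median changed sign. With the median of all probes in place of the 75th percentile, the median change from CTR was 3.77 (2 h), 1.37 (4 h, with 6 probes 3-fold higher) and -0.73 (24 h), where that of all probes was 0.41, 0.86 and -0.53, and that from 4 h was 2.04 at 30 min and 0.12 at 16 h. This scaling shifts all probes of an array alike, so that changes of all probes from 4 h moved too. The 30 min array kept its deposited values and was not scaled to its own median, so that 2.04 compares arrays with unlike scaling. With normexp the median change from CTR was 0.84 at 4 h and -0.22 at 12 h, where that of all probes was 0.30 and 0.09. From 4 h the median with normexp was 0.65 at 16 h. With no filter and no bound the median was 2.52 at 30 min, 2.38 at 2 h and, from 4 h, 2.48 at 30 min, and 1 probe was higher at 4 h, while 2 were lower at 2 h, 4 h and 8 h and 1 at 16 h and 24 h. With probes bright on both arrays alone, 5 were higher at 16 h. With dark-region probes kept, 1 was higher at 4 h, 8 h, 12 h and 24 h. At a 2-fold cutoff 1 probe was lower (30 min, 2 h, 4 h), and 2 were higher at 4 h. With the shift of neighbours subtracted, the median was 3.60 (2 h), -0.093 (12 h) and 2.21 (16 h). With the 30 min scanner intensities the median was 4.11 (16 probes), where that of all probes was 1.76. The members thus stood 2.35 above all probes, against 3.44 with the deposited values. From 4 h the median of the members was 4.30. With these intensities 5 probes were 3-fold lower, and 4 probes turned: -2.04 on A_73_P039316, -3.01 on A_73_P062321, -3.45 on A_73_P098582 and -3.26 on B2M probe A_73_P109111. The cause was not tested. The dimmest members, TAP1 and part of PSMB8, are limited by signal over background. No paired analysis was possible because each condition had 1 array and no test was made.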
